A study of Mus musculus with 309 samples.

Results

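Untreated tumours of the mouse mammary tumour lines p53RB-624 and p53RB-626 were compared by bulk RNA-seq. The comparison holds 6 of the 309 tumours of the series: the 3 untreated p53RB-624 tumours with library numbers CP-4523 to CP-4525, and the 3 untreated p53RB-626 tumours with library numbers CP-4547 to CP-4549. The series covers 24 models of triple-negative breast cancer, some of them given immunotherapy, chemotherapy, erlotinib or trametinib. Both lines were also profiled under 4 treatments with 3 tumours each: carboplatin with paclitaxel (chemotherapy), trametinib (an inhibitor of the kinase MEK), erlotinib (which blocks the EGFR kinase), and antibodies to PD1 and CTLA4 (immune checkpoint blockade). A further 3 untreated p53RB-626 tumours carry library numbers CP-4088 to CP-4090, and 3 untreated tumours of another line, p53RB-426, are given as values. The labels state tissue, line, treatment and a median survival of 14 days for untreated p53RB-624 and 12 days for untreated p53RB-626. Under treatment it was 19 against 14 days with chemotherapy, 16 against 17 with trametinib, 14 against 12 with erlotinib and 14 against 10 with the antibodies. The labels give no genotype, strain, age or sex, do not say whether a line is 1 clone or whether each library is 1 animal, and name no allele behind "p53RB". If tumours were passaged from 1 source or pooled, the p-values below measure only the spread between these libraries.

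The names point to p53 and the retinoblastoma protein, 2 tumour suppressors. p53 halts division or triggers death after DNA damage, and the retinoblastoma protein holds back E2F transcription factors until a cell commits to replicate its DNA. In the mammary gland, luminal cells line the ducts and make milk, and basal or myoepithelial cells contract around them. Receptor tyrosine kinases such as MET and EGFR sit at the cell surface, bind secreted ligands, and signal through RAS, MEK and ERK. Tumour tissue also holds immune cells, blood vessels and fibroblasts, whose RNA is counted together with that of the cancer cells. In such bulk samples, fewer cells of a type and less RNA per cell cannot be told apart.

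Values are CPM (counts scaled to an equal library total) per tumour, in library-number order within each line. Differences are log2 fold changes of p53RB-624 minus p53RB-626, so a positive value is higher in p53RB-624. Genes are said to be called where edgeR's quasi-likelihood test gave p under 0.05 after Benjamini-Hochberg adjustment across all tested genes. Treated values come from 12 tumours against 12 in the 4 treatments, none of which enter the untreated comparison.

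Several features of the libraries bear on every result. The p53RB-624 libraries held 104267541 to 163214393 counts and the p53RB-626 libraries 72403105 to 110348259. Mitochondrial genes took 1.05% to 1.18% of counts in p53RB-624 and 1.71% to 2.15% in p53RB-626. The 3 pairs of untreated p53RB-624 libraries were the most alike of 138 within-group pairs in 29 groups. Their median absolute log2 ratio per gene was 0.039 for tumours 1 and 2, 0.056 for 2 and 3, and 0.067 for 1 and 3, against a median of 0.19 over all pairs. Tumours 1 and 2 still differed beyond counting noise, with 26.4% of 17767 genes at a chi-square p under 5%. That test covers counting noise only, so it cannot tell whether the 2 libraries come from separate tumours. They were kept as separate samples. With their counts summed into 1 sample, 9656 genes were called between the lines, against 11089. Those 2 tumours also carried more skeletal muscle RNA. The summed CPM of 16 muscle genes was 1177, 1154 and 206 in p53RB-624 and 74.6, 217 and 47.9 in p53RB-626. Finally, the libraries fall into 2 sets by how counts were placed between the near-identical genes Fam177a and Fam177a2. Untreated p53RB-624, 3 of its treated groups and the antibody-treated p53RB-626 tumours (15 libraries) put 82.1% to 100% of the pair's counts on Fam177a2, and the other 21 put none there. The 272 tested genes with a GC content above 62% had a median log2 fold change of -0.48 in untreated tumours and 306 such genes had 0.71 in the antibody arm, where the 2 sets are swapped between the lines. Line and library set therefore cannot be told apart in untreated tumours, nor within the chemotherapy, trametinib and erlotinib arms. Genes above 62% GC had medians of -0.75, -0.28 and -0.61 in those arms. Between p53RB-626 tumours CP-4547 to CP-4549 and CP-4088 to CP-4090 (the first minus the second), 258 such genes had a median of -0.45. Neither of those groups put counts on Fam177a2, so a shift of that size also arose within 1 library set. Antibody-arm values are given beside some of the main results. Where only a treated value is given, it pools arms in which line and library set coincide.

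The lines differed in most of the transcriptome. Of 17988 tested genes, 11089 were called (61.6%). p53RB-624 was higher for 5445 (30.3%) and p53RB-626 for 5644 (31.4%). Every count of called list members below is to be read beside these shares. At least a 2-fold difference was seen for 1496 genes higher in p53RB-624 (8.32%) and 1703 higher in p53RB-626 (9.47%). With the spread estimated over all untreated groups of the series, 3452 genes were called. Without p53RB-624 tumours 1 and 2, only 1 p53RB-624 tumour is left. The spread of that fit comes from p53RB-626 alone, so its counts of calls are not given.

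The direction held in treated tumours of the lines, where line and library set again coincided in every arm but the antibody arm. Of the 3199 genes with at least a 2-fold difference, 2777 were tested in treated tumours, 2730 of them (98.3%) lay in the same direction and 2532 were called in it. Genes at least 2-fold different in both made up 64.6% of the untreated list and 65.7% of the treated list of 3142. In treated tumours, 33.7% of 17162 genes were called higher in p53RB-624 and 35.6% higher in p53RB-626. In the antibody arm, where 46.9% of 18861 genes were called, 2853 of 3099 (92.1%) lay in the same direction and 68 were called in the opposite one. Within p53RB-626, the tumours CP-4547 to CP-4549 and CP-4088 to CP-4090 also differed, with 33.4% of 16566 genes called, though only 4.7% were called and at least 2-fold apart. That comparison shares its tumours with the main one. Its libraries CP-4088 to CP-4090 held 22065553 to 23563814 counts, against 72403105 to 110348259 in CP-4547 to CP-4549. Mitochondrial genes took 2.83% to 3.12% of counts against 1.71% to 2.15%. With chemotherapy, trametinib and erlotinib, p53RB-626 libraries held 23545756 to 35351356 counts and p53RB-624 libraries 70067641 to 160419828. With the antibodies they held 81462732 to 130764763 and 169096898 to 190322137. The effect of depth was not tested.

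The genes named for the lines were read first. Trp53, which encodes p53, measured 24.4, 24.4 and 22.1 CPM in p53RB-624 and 27.0, 30.0 and 27.2 in p53RB-626, a log2 difference of -0.25 (adjusted p = 0.0132). Rb1, which encodes the retinoblastoma protein, measured 14.9, 15.7 and 16.5 against 20.6, 21.0 and 21.4 (-0.42, adjusted p = 0.000731). Transcripts of both genes were thus present in all 6 tumours, and neither was at 0. A deletion inside a gene is not visible in gene-level counts. For Rb1 the other untreated p53RB-626 tumours had a mean of 15.9 CPM, level with p53RB-624.

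Met was higher in p53RB-624 and sat in a run of neighbouring genes that were all higher in p53RB-624. Met encodes the receptor for hepatocyte growth factor (ENSMUSG00000009376.15, mm10 chr6:17463800-17573980). It measured 4596, 4681 and 5039 CPM in p53RB-624 and 298, 263 and 310 in p53RB-626. The groups lay far apart, with p53RB-624 16.4-fold higher (log2 4.04, SE 0.0853, adjusted p = 9.8e-08). Around it, 15 consecutive tested protein-coding genes from Tes to Wnt16 were called higher in p53RB-624, 14 of them at least 2-fold, over 5.23 Mb (mm10 chr6:17065149-22298522). These neighbours were chosen after their values were seen.

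At the proximal end of the run, Tes, which encodes a focal adhesion protein, measured 2577, 2537 and 2549 CPM in p53RB-624 against 72.8, 71.5 and 77.6. Its difference was 5.11 (SE 0.0621, adjusted p = 1.63e-08). Cav2 and Cav1 encode the caveolins, coat proteins of flask-shaped membrane pits. Cav2 measured 757, 751 and 843 against 45.0, 47.6 and 58.8 (3.95). Cav1 measured 4187, 4190 and 4459 against 476, 495 and 519 (3.10). Beyond Met, Capza2, an actin-capping subunit, measured 2632, 2615 and 3010 against 165, 182 and 190 (3.94). St7 measured 89.4, 89.0 and 103 against 7.72, 8.05 and 7.83 (3.58). So 6 adjacent genes from Tes to St7 each differed by more than 3 log2 units, with no overlap between lines.

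Further along, low-level genes shared the direction. Wnt2, a secreted Wnt ligand, measured 0.553, 0.467 and 1.05 CPM against 0.22, 0.0914 and 0.183 (2.05). Asz1, a germ cell gene, measured 0.366, 0.267 and 0.464 and had no counts in p53RB-626, which makes it at least 8.83-fold higher against a floor of 3 counts over the group. Cftr, the chloride channel of cystic fibrosis, measured 7.17, 7.82 and 9.28 against 1.13, 0.834 and 1.34 (2.88). These genes were thus expressed little in either line and still differed. Lsm8, an RNA-binding protein of the spliceosome, measured 223, 218 and 247 against 34.1, 37.5 and 36.5 (2.67), and Ing3, a chromatin reader, 115, 115 and 128 against 22.1, 22.3 and 22.6 (2.42). The smallest difference of the run was Tspan12, a membrane protein of Frizzled receptor signalling, at 0.53. Over the 4 treatments together it was 0.02 (adjusted p = 0.967). By arm it was 0.83 with chemotherapy, 0.59 with erlotinib, 0.59 with the antibodies and -2.14 with trametinib. In the trametinib arm p53RB-626 had a mean of 37 CPM with an SD of 38.3.

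Outside the run, the nearest genes differed less or not beyond the threshold. On the proximal side, Tfec, a transcription factor gene next to Tes, differed by -0.49, and Mdfic, the next one out, by 0.10 (adjusted p = 0.183). On the distal side, Fam3c, next to Wnt16, measured 120, 120 and 123 CPM against 121, 132 and 131 (-0.09, adjusted p = 0.169). Past Fam3c, 4 of the next 5 tested protein-coding genes were again called higher in p53RB-624. They were Ptprz1, a receptor phosphatase (3.14), Cadps2 (0.85), and Rnf133 and Rnf148, which measured at most 0.179 CPM in any of the 6 tumours. Aass, an enzyme of lysine breakdown, was lower (-2.46). The distal end of the run thus rests on 1 gene, Fam3c. With trametinib, Fam3c had a mean of 366 CPM in p53RB-626 with an SD of 316, against 139 with an SD of 18.4 in p53RB-624.

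**Figure D1:**
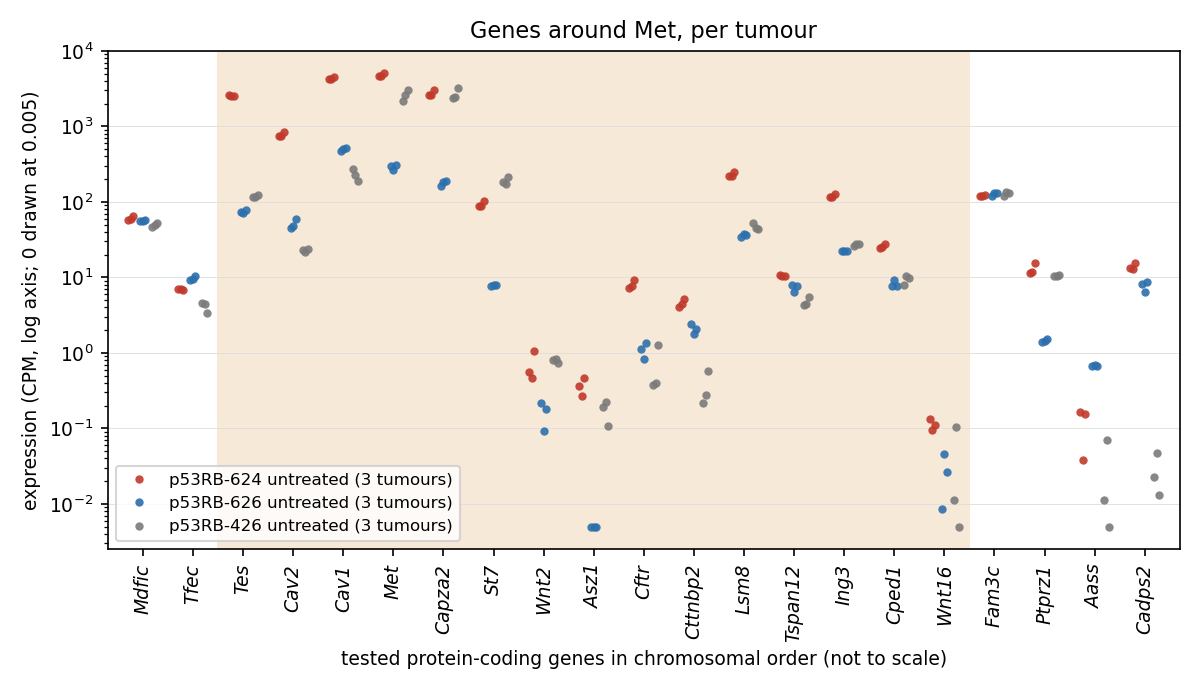
Expression in CPM (log axis) of the tested protein-coding genes around Met in chromosomal order, 1 point per untreated tumour, for p53RB-624, p53RB-626 and p53RB-426. The shaded run from Tes to Wnt16 holds 15 genes called higher in p53RB-624, while Mdfic and Fam3c outside it lie together in all 3 lines; p53RB-426 is near p53RB-624 for Met and Capza2 only among the first 5 shaded genes.

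The line p53RB-426 split the run. Mean CPM in untreated p53RB-426 was 2602 for Met, 2696 for Capza2 and 190 for St7, near or above p53RB-624. It was 119 for Tes, 22.8 for Cav2, 228 for Cav1 and 46.8 for Lsm8, near p53RB-626. Wnt2 was also high in p53RB-426, at 0.794 CPM against 0.689 in p53RB-624 and 0.165 in p53RB-626. Beyond the run, Ptprz1 had 10.7 CPM in p53RB-426, against 12.9 in p53RB-624 and 1.46 in p53RB-626. Fewer genes of the run were thus high in p53RB-426 than in p53RB-624, and they did not form 1 unbroken stretch with Ptprz1.

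Over the 4 treatments together 13 of 14 tested genes of the run were called higher in p53RB-624, and likewise in the antibody arm alone. With trametinib alone, only Tes, Cav2, Cav1, Capza2 and Asz1 among them were called higher. In that arm Tspan12 was called lower in p53RB-624 (-2.14, adjusted p = 0.0261). Met measured 4022 ± 157 against 282 ± 57.1 CPM with chemotherapy, 4645 ± 1062 against 283 ± 21.8 with erlotinib and 3902 ± 420 against 243 ± 50.4 with the antibodies (mean ± SD, n = 3). The trametinib arm stood apart, at 3614 ± 850 against 1223 ± 1135, where the log2 difference of 1.52 was not called (adjusted p = 0.0617). In that arm 1 p53RB-626 tumour was high: Met measured 522, 2533 and 615 CPM in the 3 tumours. The same tumour was high for Capza2 (287, 1133 and 312), St7 (12.4, 61.2 and 13.7), Wnt2 (0.328, 1.65 and 0.108) and Lsm8 (61.3, 309 and 67.2). It was not the highest for Cav1 (774, 466 and 782), and its Tes (83.1, 124 and 77.0) and Cav2 (45.0, 64.9 and 57.3) stayed far below every p53RB-624 tumour. Without that tumour, trametinib-treated p53RB-626 lay at 522 and 615 CPM of Met, above all 6 untreated p53RB-626 tumours, which ran from 202 to 310.

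The ligand went the other way. Hgf, which encodes hepatocyte growth factor, measured 9.32, 8.36 and 9.33 CPM in p53RB-624 and 108, 78.0 and 99.2 in p53RB-626. p53RB-626 was 10.6-fold higher (log2 -3.40, SE 0.126, adjusted p = 1.04e-06), with -3.45 in treated tumours. Macc1, a gene on chromosome 12 known as a transcriptional activator of Met, measured 124, 126 and 122 against 1.14, 0.857 and 1.11 (6.89, SE 0.0977, adjusted p = 1.77e-08, treated 6.38). The line with high receptor RNA thus had low ligand RNA and high Macc1 RNA.

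Receptor tyrosine kinase genes went both ways. Of 38 tested receptor tyrosine kinase genes, 14 were called higher in p53RB-624 and 12 lower, 5 and 2 of them at least 2-fold. These counts lie near the 30.3% and 31.4% of all tested genes. The median was -0.04 against -0.02 over all genes. Fgfr2, a fibroblast growth factor receptor, measured 1.18, 1.3 and 1.29 CPM against 8.38, 10.8 and 8.98 (-2.90). Epha3, an ephrin receptor, differed by 2.10. Egfr, the receptor targeted by erlotinib, measured 46.1, 48.1 and 43.8 against 49.4, 41.6 and 47.2, and the lines overlapped (-0.01, SE 0.0726, adjusted p = 0.957).

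Ligands of EGFR were higher in p53RB-624 although the receptor was not called. Areg, which encodes amphiregulin, measured 17.8, 17.6 and 20.0 CPM against 1.87, 0.959 and 0.678 (3.94, SE 0.311, adjusted p = 2.61e-05). Tgfa, transforming growth factor alpha, measured 12.8, 13.2 and 12.1 against 1.41, 1.47 and 2.07 (2.95). Ereg, epiregulin, measured 88.4, 89.1 and 106 against 21.6, 11.1 and 18.4 (2.46). None of the 3 overlapped between lines, and treated differences were 4.53, 2.62 and 2.78. Btc (1.32) and Hbegf (0.79) were also called higher, and Nrg1, a ligand of the related receptor ErbB3, lower (-1.12). Across all 36 tested growth factor ligands, 15 were higher and 15 lower, 10 and 6 of them at least 2-fold. Bdnf, a nerve growth factor relative, measured 31.2, 30.1 and 36.8 against 6.83, 7.17 and 7.29 (2.20), and Pdgfa, a platelet-derived growth factor, differed by 1.46. Ligands that fibroblasts commonly supply, Fgf7 (-1.98) and Fgf10 (-1.58), were lower. Fibroblast genes as a list did not share that direction, with 9 of 19 tested higher, 4 lower and a median of 0.28.

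Genes induced by ERK signalling were mostly higher in p53RB-624. Of 22 tested ERK targets and feedback genes, 14 were higher and 3 lower, with a median of 0.58, and in treated tumours 13 and 2 with a median of 0.53. In the antibody arm alone 14 were higher and 1 lower, with a median of 0.99. With the spread over all untreated groups the counts were 4 and 2. Etv4, an ETS transcription factor, measured 115, 112 and 109 CPM against 37.9, 41.2 and 38.7 (1.51, SE 0.0509, adjusted p = 6.36e-07). Spry4, a feedback inhibitor of receptor signalling, measured 84.5, 82.6 and 83.7 against 25.7, 19.8 and 28.4 (1.76), and Il1rap, an interleukin 1 receptor subunit, differed by 1.48. Members that went the other way were Dusp6, a phosphatase of ERK (-0.40), Spry1 (-0.86) and Myc. Myc, a growth-promoting transcription factor, measured 77.7, 73.2 and 81.7 against 155, 151 and 175 (-1.05), with -0.48 in treated tumours.

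**Figure D2:**
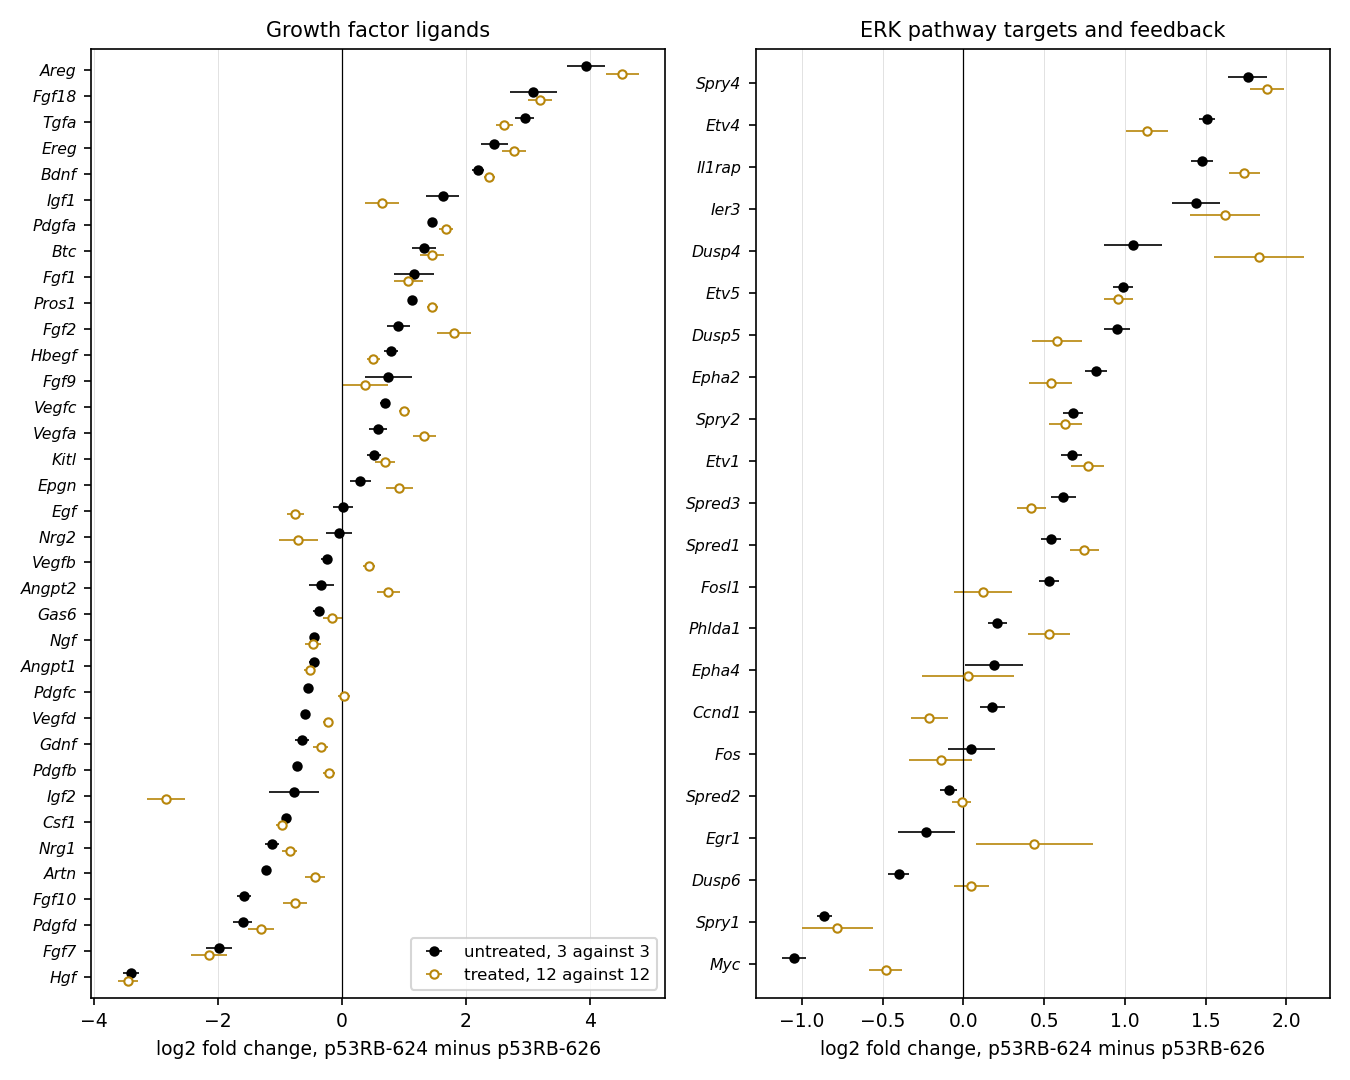
Log2 fold change of p53RB-624 minus p53RB-626 with its SE for the tested growth factor ligands (left) and ERK targets (right), in untreated tumours (filled, 3 against 3) and treated tumours (open, 12 against 12). Areg, Tgfa and Ereg lie on the right and Hgf at the far left of the ligands, and most ERK targets lie above 0 in both sets, with Spry1 and Myc below.

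T cell and natural killer (NK) cell genes were lower in p53RB-624. Of 28 tested, 25 were called lower, 23 of them at least 2-fold, and 2 higher, with a median of -2.05 against -0.02 over all genes. Their summed CPM was 38.1, 39.4 and 47.0 in p53RB-624 and 344, 249 and 336 in p53RB-626, and 264, 258 and 232 in the other untreated p53RB-626 tumours. In treated tumours 26 of 28 were called lower (median -2.65), and the antibody arm had a median of -2.57. The count lower was 12 with the spread over all untreated groups.

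The largest differences were in the killing machinery of cytotoxic cells. Prf1, which encodes perforin, measured 2.27, 2.35 and 3.97 CPM against 160, 65.2 and 114 (-5.29, SE 0.389, adjusted p = 1.85e-05). Gzmb, the protease granzyme B, measured 3.0, 3.23 and 4.04 against 71.7, 44.9 and 77.1 (-4.23). Ccl5, a chemokine that draws T cells, measured 2.57, 2.76 and 2.23 against 32.3, 38.3 and 52.5 (-4.03). Every p53RB-626 tumour was above every p53RB-624 tumour for these 3 genes. Gzmg, one of several similar granzyme genes among which reads may be split, measured 2.19, 2.19 and 6.74 against 493, 160 and 278 (-6.35). Ncr1, an activating receptor of NK cells, measured 1.42, 1.8 and 2.17 against 9.14, 9.64 and 11.4 (-2.48), and Nkg7, a granule protein, differed by -2.80.

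Genes that define T cells had smaller log2 differences. Cd3e, part of the T cell receptor complex, measured 0.366, 0.477 and 0.557 CPM against 1.4, 2.92 and 1.36 (-2.01). Cd8a, the co-receptor of cytotoxic T cells, measured 0.724, 0.448 and 0.681 against 0.906, 1.34 and 1.23 (-0.90, adjusted p = 0.0132). With the other 3 untreated p53RB-626 tumours in place the Cd8a difference was -0.01, and in treated tumours it was -2.54. Cd4, the co-receptor of helper T cells, measured 5.3, 5.24 and 5.98 against 2.53, 4.66 and 2.26 (0.80, treated -0.01), and Cxcr6, a homing receptor, was higher by 1.04. Cd4 and Cxcr6 were the 2 members called higher in p53RB-624.

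**Figure D3:**
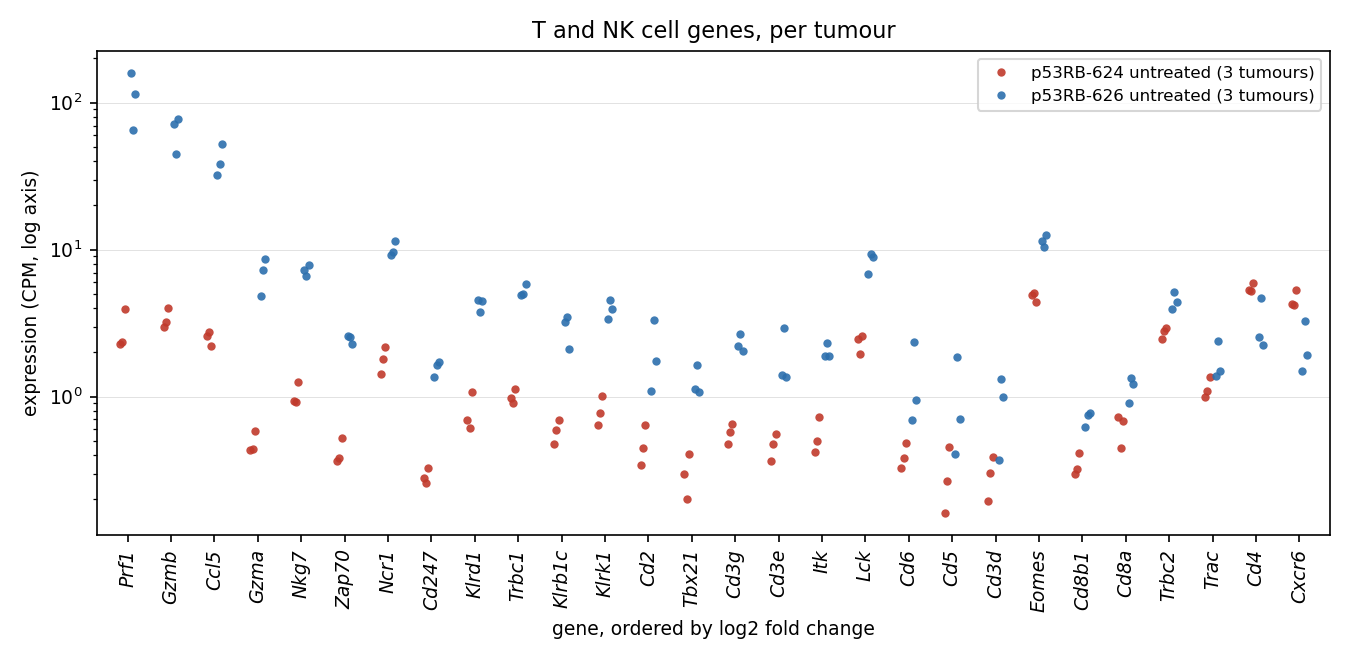
Expression in CPM (log axis) of the 28 tested T and NK cell genes, 1 point per untreated tumour, ordered by log2 fold change from the lowest at the left. The cytotoxic genes Prf1, Gzmb and Ccl5 at the left are separated most, and Cd4 and Cxcr6 at the right are higher in p53RB-624.

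Macrophage genes were lower in p53RB-624 by a smaller amount. Of 24 tested, 22 were called lower, 8 of them at least 2-fold, with a median of -0.88. Summed CPM ran from 4621 to 4813 in p53RB-624 and from 8561 to 9553 in p53RB-626. With the spread over all untreated groups 7 were lower. In the antibody arm 14 of 24 were lower and 0 higher, with a median of -0.60. Lyz2, lysozyme, measured 1236, 1249 and 1310 against 2634, 2711 and 2729 (-1.09, SE 0.0514, adjusted p = 2.66e-06). Mrc1, the mannose receptor, differed by -0.86 and C1qa, a complement subunit made by macrophages, by -0.90. Csf1, the growth factor of macrophages, measured 276, 281 and 277 against 482, 507 and 568 (-0.90, treated -0.97). Of 14 dendritic cell genes 10 were lower, with a median of -0.90, among them Xcr1, a marker of cross-presenting cells (-1.51), and Zbtb46 (-0.65). The dendritic count was 1 with the spread over all untreated groups, and summed CPM overlapped between the lines (498 to 545 against 504 to 574). Neutrophil genes were mixed, with 5 of 13 lower and 1 higher, and endothelial genes balanced, with 3 of 20 in each direction. Over all tested genes 31.4% were called lower and 30.3% higher, so endothelial genes were called less often than genes at large.

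Genes of antigen presentation on MHC class I were lower in p53RB-624 in 17 of 18 cases, 6 at least 2-fold, with a median of -0.88. H2-Q6, a non-classical class I gene, measured 24.8, 24.5 and 28.1 CPM against 90.5, 101 and 96.9 (-1.90), and its near-identical neighbour H2-Q7 differed by -1.43. H2-K1, a classical class I heavy chain, differed by -0.54 and Tap1, a peptide transporter, by -0.76. B2m, the shared light chain, measured 1113, 1097 and 1258 against 1073, 1294 and 1277 and was not called (-0.07, adjusted p = 0.501). With the spread over all untreated groups, 7 of the class I genes were lower. In the antibody arm 13 of 18 were lower and 0 higher, with a median of -0.83.

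Interferon response genes shared the direction. Of 28 type I interferon genes, 20 were lower and 2 higher (median -0.59), and of 20 interferon gamma genes 12 were lower and 2 higher (median -0.52). The type I median was -0.71 in treated tumours and -1.34 in the antibody arm. The interferon gamma median was -1.20 in treated tumours and -1.99 in the antibody arm. Gbp2, an interferon-induced GTPase, measured 40.2, 41.6 and 47.9 CPM against 146, 149 and 169 (-1.84, SE 0.0884, adjusted p = 2.88e-06). Xaf1 differed by -1.07 and Oasl2, of the antiviral OAS family, by -0.85. With the spread over all untreated groups, edgeR called 0 type I genes lower (3 at an unadjusted p under 0.05) and 2 interferon gamma genes, while DESeq2 on the 2 lines alone called 21 type I genes lower.

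Checkpoint and regulatory T cell genes were lower in 18 of 22 cases and higher in 3, with 5 lower with the spread over all untreated groups. Havcr2, which encodes the inhibitory receptor TIM-3, measured 10.3, 10.7 and 13.0 CPM against 50.9, 42.9 and 43.4 (-2.02). Ido1, an enzyme of tryptophan breakdown that restrains T cells, went the other way, at 1.32, 1.45 and 1.14 against 0.0254, 0.0228 and 0.0391 (5.46). Cd274, the PD1 ligand, measured 3.39, 3.43 and 5.04 against 6.45, 5.94 and 4.79, and the lines overlapped (-0.54, adjusted p = 0.0354).

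Epcam and the milk genes were low in both lines. Epcam, an epithelial surface protein, measured 0.514, 0.696 and 0.805 CPM in p53RB-624 and 1.75, 3.21 and 1.98 in p53RB-626 (-1.78). The 12 milk genes summed to 0.297 to 0.401 and 1.1 to 1.85 CPM, with 5 and 6 of them at 0. Vim, the mesenchymal filament vimentin, measured 3405, 3107 and 3348 against 2552, 2576 and 2462 (0.37). The summed CPM of the epithelial identity list, keratins included, was 319 to 377 in p53RB-624 and 97.8 to 148 in p53RB-626.

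Cadherins and keratins differed between the lines. Cdh2, which encodes N-cadherin, measured 0.786, 0.82 and 0.867 CPM in p53RB-624 and 97.5, 85.3 and 98.0 in p53RB-626. p53RB-626 was 113-fold higher (log2 -6.83, SE 0.0918, adjusted p = 1.63e-08), with -6.83 in treated tumours as well. Cdh1, E-cadherin, was also lower in p53RB-624 (5.42, 4.59 and 7.78 against 15.6, 27.0 and 18.3, log2 -1.77). Krt8, a luminal keratin, was higher at 283, 265 and 243 against 40.8, 69.6 and 50.4 (2.30, treated 1.75). Grhl2, an epithelial transcription factor, measured 4.01, 3.96 and 3.4 against 0.136, 0.126 and 0.0783 (5.02), while Spint2, an epithelial protease inhibitor, differed by -2.05. Neither line was thus uniformly higher for epithelial genes, of which 4 of 14 tested were higher and 6 lower, beside 30.3% and 31.4% of all tested genes. Krt14, a basal keratin, was under 1 CPM in the mean of each group (0.40, adjusted p = 0.0955), and the other untreated p53RB-626 tumours had a mean of 19.0 CPM.

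Contractile and basal genes were higher in p53RB-624. Of 13 tested basal and myoepithelial genes, 10 were higher and 1 lower, 7 at least 2-fold, with a median of 1.63 (1.36 in treated tumours). Tagln, which encodes the actin-binding protein transgelin, measured 187, 183 and 191 CPM against 12.8, 11.9 and 7.28 (4.12, SE 0.191, adjusted p = 2.5e-06). Acta2, smooth muscle actin, measured 588, 585 and 547 against 78.5, 70.8 and 61.2 (3.03), and Cnn1, calponin, 69.1, 64.6 and 64.3 against 5.31, 6.33 and 4.38 (3.62). Sfn, the 14-3-3 sigma protein, measured 40.6, 36.1 and 38.2 against 2.54, 2.42 and 2.11 (4.01). None of the 4 overlapped between lines, and p53RB-624 tumour 3, which had less muscle RNA, was close to the other 2. Acta2, Cnn1 and Tagln also mark pericytes and smooth muscle, whose list had 8 of 13 higher and 1 lower. The basal count was 5 with the spread over all untreated groups. With p53RB-626 tumours CP-4088 to CP-4090 in place 6 basal genes were higher and 2 lower, and with all 6 p53RB-626 tumours 6 and 1. In the antibody arm 7 of 14 were higher and 3 lower, with a median of 1.14.

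Matrix genes leaned to p53RB-624. Of 24 tested matrix glycoprotein and proteoglycan genes, 15 were higher and 6 lower (median 0.73), and of 20 collagens 11 were higher and 4 lower (median 0.50). Tnc, the glycoprotein tenascin C, measured 2273, 2293 and 2256 CPM against 436, 450 and 450 (2.35, SE 0.0485, adjusted p = 9.8e-08). Fbn1, fibrillin 1, differed by 1.87, Col6a3 by 1.53, and Lrrc15, a marker of activated fibroblasts, by 2.02. Col1a1, the main fibrillar collagen of stroma, was lower at 1667, 1476 and 1389 against 1943, 2359 and 1811 (-0.44, adjusted p = 0.00857). Metalloproteinases and their inhibitors had 14 of 25 higher and 5 lower, including the plasminogen activator Plat (1.00) and its inhibitor Serpine2 (0.94). In matrix glycoproteins 7 were higher with the spread over all untreated groups.

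Hox genes and other patterning factors differed in both directions. Of 26 tested Hox genes, which set position along the body, 14 were lower in p53RB-624 and 4 higher, with a median of -0.82 and 17 and 4 in treated tumours. Hoxc6 measured 1.62, 1.59 and 1.42 CPM against 17.9, 19.8 and 13.7 (-3.48). Its chromosome 15 neighbours Hoxc4 (-4.04), Hoxc5 (-3.11), Hoxc8 (-1.50) and Hoxc9 (-3.01) shared the direction. Hoxa9 (1.31), Hoxa10 (1.43) and Hoxc10 (1.60) were higher in p53RB-624. With the spread over all untreated groups, edgeR called 0 Hox genes higher and 8 lower, while DESeq2 with all 6 tumours called 4 higher. Other homeobox and T-box factors split by gene. Alx1, a craniofacial homeobox gene, measured 8.71, 8.76 and 8.88 against 0, 0.0114 and 0, a ratio of 2318 with a 95% counting interval of 416 to 91563. Tbx15, a T-box factor of skeleton and fat, measured 4.1, 3.81 and 4.85 against 96.2, 96.6 and 99.6 (-4.52), and Tbx20, a cardiac T-box factor, 0.171, 0.0763 and 0.371 against 29.1, 25.1 and 29.3 (-6.97). Nr2f1, a nuclear receptor of neural crest and brain, measured 0.973, 0.868 and 0.483 against 50.3, 42.9 and 44.7 (-5.92). Several of these factors were thus near 0 in one line and clearly expressed in the other, in both directions.

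The other largest differences were in genes of varied function. Igf2bp1, a fetal RNA-binding protein, measured 20.7, 21.0 and 20.2 CPM in p53RB-624 and 0.0339, 0.0114 and 0.013 in p53RB-626 (9.85). Uox, urate oxidase, measured 63.7, 62.5 and 61.3 against 0.737, 0.845 and 1.23 (6.09), and Nrn1, neuritin, 27.9, 28.5 and 39.0 against 0.0932, 0.354 and 0.0913 (7.49). Agbl2 (7.27), Tmprss11e (7.09), Slc25a21 (6.84) and Slc12a8 (6.24) completed the high side. In the other direction, Hapln1, which links hyaluronan to proteoglycans, measured 0.00778, 0.0191 and 0.00619 against 8.88, 8.39 and 8.69 (-9.59). Bmp3, an antagonist in the BMP family, measured 0.0856, 0.0477 and 0.099 against 10.7, 16.8 and 12.4 (-7.36). Asxl3 (-7.64), Gabra4, a GABA receptor subunit (-7.39), Grin3a, an NMDA receptor subunit (-6.91), Ctsg, the protease cathepsin G (-6.74), Usp44 (-6.20) and Prss35 (-5.91) also belonged to this side. For Alx1, Igf2bp1, Macc1, Uox, Hapln1 and Tbx20 the other 3 untreated p53RB-626 tumours lay with those compared here.

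A few of the largest differences rest on particular libraries. Myh7, a muscle myosin, was high only in p53RB-624 tumours 1 and 2, as was Igfn1 (21.2, 20.7 and 1.42 CPM against 0.0339, 0.0343 and 0). Over the group Myh7 had a ratio of 1090 with a counting interval of 373 to 5286. Of 16 muscle genes 13 were called higher in p53RB-624. With the spread over all untreated groups, edgeR called 0 of them (3 at an unadjusted p under 0.05), while DESeq2 on the 2 lines alone called 13. Myh4, a fast muscle myosin, measured 121, 120 and 14.9 against 0.762, 4.2 and 0.3, and Neb, the sarcomere protein nebulin, 45.2, 49.8 and 6.95 against 2.84, 3.99 and 1.4. Most of the muscle signal in untreated tumours thus came from 2 libraries. Under treatment, 13 of 15 muscle genes were called higher in p53RB-624 with chemotherapy (median 3.47) and 12 of 16 with trametinib (2.23). With erlotinib it was 0 of 14 (median 0.93) and with the antibodies 0 of 16 (-0.57). Fam177a2 measured 31.3, 33.3 and 30.9 CPM against 0 in every p53RB-626 tumour, at least 769-fold over a floor of 3 counts, and in the antibody arm it was 0 in p53RB-624 and 23 in p53RB-626.

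**Figure D4:**
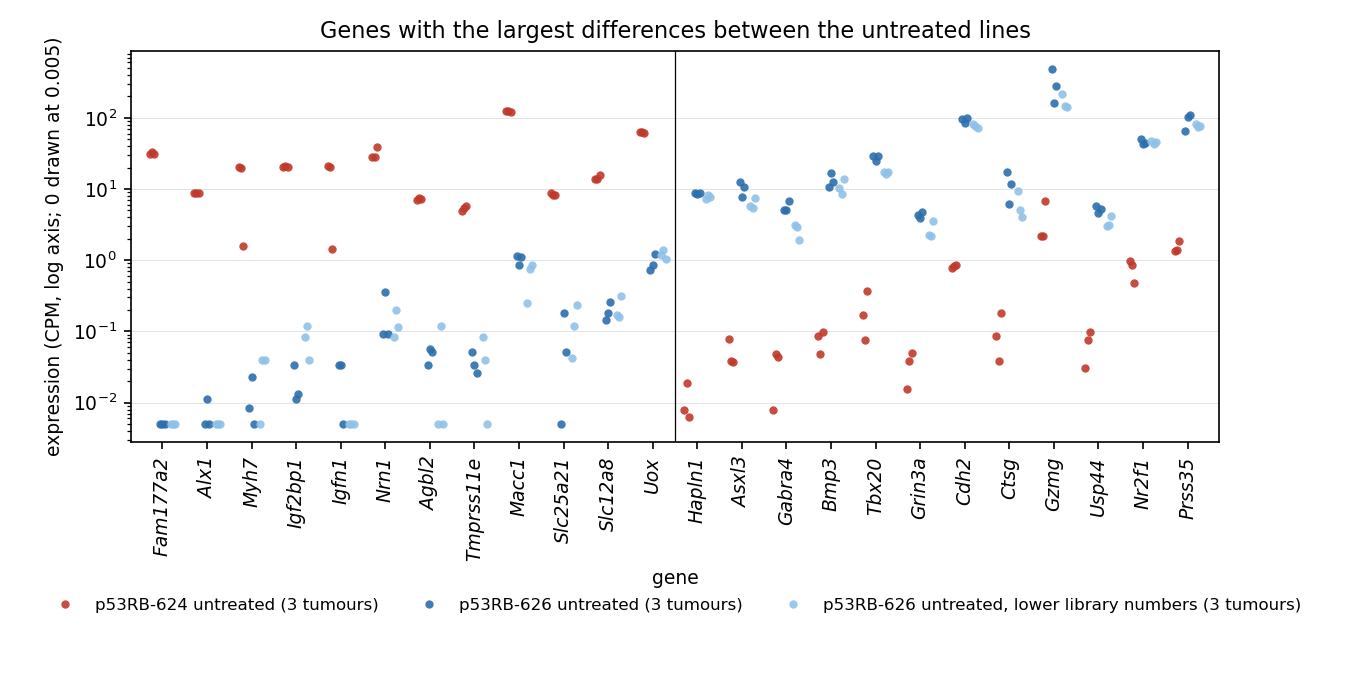
Expression in CPM (log axis) of the 12 genes with the largest differences in each direction, 1 point per untreated tumour, including the other 3 p53RB-626 tumours with lower library numbers. p53RB-624 lies above in the left panel and below in the right; Myh7 and Igfn1 have 1 p53RB-624 tumour near 1 CPM.

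Imprinted genes, expressed from 1 parental copy, also separated the lines. Of 17 tested, 7 were higher in p53RB-624 and 7 lower, 7 and 5 of them at least 2-fold. H19, a noncoding RNA of the Igf2 domain, measured 522, 507 and 441 CPM against 5.13, 15.1 and 5.05 (5.87, SE 0.449, adjusted p = 2.21e-05, treated 7.58). Cdkn1c, a cell cycle inhibitor of the neighbouring domain, measured 44.8, 38.4 and 41.8 against 0.517, 1.03 and 0.483 (5.95). Grb10, an adaptor that restrains insulin and growth factor receptors, measured 239, 241 and 262 against 41.4, 34.7 and 44.0 (2.62). Peg10, a retrotransposon-derived gene, went the other way with 2.86, 2.52 and 1.62 against 66.1, 68.2 and 63.8 (-4.84), together with its neighbour Sgce (-3.67). Igf2 itself was low, at 1.62, 1.62 and 0.538 against 2.74, 1.82 and 1.83 (-0.77, adjusted p = 0.127).

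In other developmental signalling pathways both directions were found. Over all tested genes 30.3% were called higher and 31.4% lower, the shares beside which the pathway counts are to be read. Among 29 Wnt genes 12 were higher and 7 lower, with Wnt10a, a Wnt ligand, at 3.33, 2.95 and 2.44 CPM against 38.3, 38.5 and 38.4 (-3.73), and Dkk3 lower by -1.08. Lgr6, a stem cell receptor that enhances Wnt signalling, measured 16.6, 16.5 and 17.4 against 0.39, 0.286 and 0.326 (5.63). Among 30 TGF-beta and BMP genes 12 were higher and 10 lower, with Gdf10 (3.97) and Bmp2 (2.34) higher. Hhip, which sequesters hedgehog ligands, was higher by 2.53 and the Notch ligand Jag1 by 1.60. Hmga2, an oncofetal chromatin protein, measured 255, 257 and 265 against 83.8, 75.5 and 74.3 (1.73).

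Lists of cell cycle, stress and metabolic genes had members in both directions, beside 30.3% of all tested genes called higher and 31.4% lower. Of 27 E2F targets, 14 were higher and 8 lower (median 0.20, and -0.01 in treated tumours), led by the replication factor Cdc45 (1.10) and by E2f1 (0.92). Of 21 mitosis genes 6 were higher and 8 lower, with Mki67, the proliferation marker, at 314, 327 and 300 CPM against 430, 403 and 449 (-0.45). Cdkn2a, which encodes p16 and p19ARF, measured 445, 382 and 412 against 254, 302 and 276 (0.57), and Cdkn1a, the p53 target p21, differed by 0.37 (treated 1.27). Of 25 p53 targets 7 were higher and 13 lower, among them the death receptor Tnfrsf10b (0.76) and Trp53inp1 (-1.12). Glycolysis and hypoxia genes had 14 of 26 higher and 5 lower, with 21 and 3 and a median of 1.12 in treated tumours against 0.33 untreated, including the hypoxia-induced hydroxylase Egln3 (1.57) and hexokinase Hk2 (1.36). Of 30 DNA repair genes 9 were called in each direction, and of 19 genes of drug handling 6 were higher and 7 lower, shares near the 30.3% and 31.4% of all tested genes. Among the drug handling genes, the transporter Abcc1 (0.97) and the tubulin Tubb3 (3.02) were higher. Gsr, glutathione reductase, was higher by 1.65, and Herpud1, of the unfolded protein response, lower by -1.53 but by only -0.25 in treated tumours. Xist, the noncoding RNA that silences an X chromosome, measured 222, 232 and 213 against 1896, 1274 and 1685 (-2.87).

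Differences also followed position along chromosomes. The median log2 fold change over the tested genes was 0.67 on chromosome 16, with 369 of 533 genes (69.2%) called higher in p53RB-624 and 61 lower. It was 0.69 in treated tumours, 0.67 in the antibody arm and 0.08 between the 2 sets of untreated p53RB-626 tumours. Per tumour, the median deviation on chromosome 16 was 0.34, 0.35 and 0.33 in p53RB-624 and -0.36, -0.34 and -0.33 in p53RB-626. The next highest were X (0.31) and 12 (0.25), and the lowest were 5 (-0.31), 3 (-0.30), 7 (-0.29) and 10 (-0.28). On 19 of 20 chromosomes the tumours of the lines did not overlap, the exception being 18. With 3 tumours against 3, an exact two-sided permutation test cannot go below p = 0.10, so no p is given per chromosome. The sign was the same in treated tumours on 19 of 20 chromosomes and in the antibody arm on 17.

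**Figure D5:**
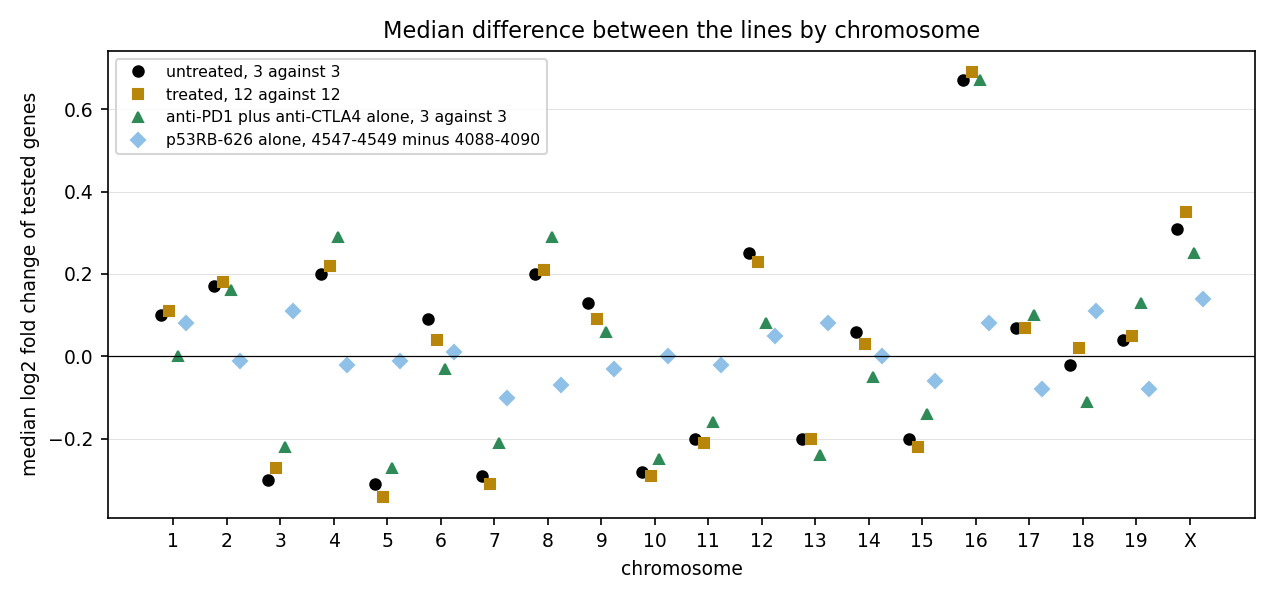
Median log2 fold change of the tested genes on each chromosome, for untreated tumours, treated tumours, the antibody arm alone, and p53RB-626 tumours CP-4547 to CP-4549 minus CP-4088 to CP-4090. Chromosome 16 stands at 0.67 to 0.69 in the 3 comparisons of the lines and at 0.08 within p53RB-626.

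At finer scale, the genes were divided into 342 windows of 50 consecutive tested genes. In 30 windows the median lay at least 0.3 from that of all genes with at least 80% of genes on that side, 14 higher in p53RB-624 and 16 in p53RB-626. All 30 lay on the same side in treated tumours, 28 of them still at least 0.3 away, and 27 did in the antibody arm, 18 of them at least 0.3 away. Across windows, Pearson's r between untreated and treated medians was 0.95 and between untreated and antibody-arm medians 0.81, as a description over windows that share libraries. All 10 windows of chromosome 16 lay above the median of all genes. Among them, mm10 chr16:3707218-22230919 held 200 genes with a median of 0.66, of which 144 were higher and 17 lower. The window that holds Met deviated furthest (1.53) but had only 68% of its genes on that side and is not among the 30. With adjacent windows of the 30 joined, the largest positive median was at the end of chromosome 8 (mm10 chr8:117498291-124721983), where 100 genes had a median of 0.85 with 73 higher and 9 lower, 0.88 in treated tumours and 1.00 in the antibody arm. Fanca, a DNA repair gene on chromosome 8, differed by 1.22. The largest negative median was on chromosome 5 (mm10 chr5:65107539-73256619), where 50 genes had a median of -0.62 with 2 higher and 34 lower, -0.56 in treated tumours and -0.76 in the antibody arm. On chromosome 7, the windows chr7:24193947-27178896 and chr7:43472904-45092221 had medians of -0.45 and -0.38 but 0.00 and 0.05 in the antibody arm, and chr10:80165985-81182498 had -0.37 but 0.03. These 3 windows thus showed no such difference where the library sets were swapped. They also differed by -0.31, -0.33 and -0.37 between the 2 sets of untreated p53RB-626 tumours, neither of which put counts on Fam177a2.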

How the data were processed

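RNA from frozen mouse mammary tumours was sequenced as poly(A) libraries, per the labels' protocols. The authors deposited estimated counts per gene symbol from Salmon for 309 tumours (55291 symbols, of which 53292 are in GENCODE M21), per the file headers and the submitters' processing notes, which also list STAR, SAMtools, Picard and mm10 without versions. A second table the authors deposited holds a normalized signal, which equals each count divided by the library's 75th percentile of values above 0, times 1000. Strand use is not given in the sources used here, so overlapping and antisense genes cannot be told apart.

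Expected counts were rounded (8.35% were not whole) and tested with edgeR 4.0.16 (R 4.3.3): TMM scaling, filterByExpr and glmQLFTest on the 6 untreated tumours, with Benjamini-Hochberg adjustment. SE is the absolute log2 fold change over the square root of F. Treated tumours were fitted with treatment as a factor. CPM was TMM-scaled over the p53RB tumours. Intervals and floors cover counting error only. The fit was tested on simulated data. Alternatives were DESeq2 1.42.0, limma 3.58.1 on the normalized signal with a pseudocount of 1, other scalings and filters, other p53RB-626 tumours, other spreads and leaving out each tumour. A GC offset, the fit without p53RB-624 tumours 1 and 2, and the fit with them summed were added after seeing the data.

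The members, the 49 gene lists and the naming rule were chosen with earlier results of these data known. The rule took the 12 largest called differences in each direction with a mean of at least 4 CPM in the higher line and no overlap, the 2 called members with the smallest p of each list with at least 3 called members, and 17 fixed genes. The genes Tes, Wnt16, Cav2, Cav1, Capza2, St7, Wnt2, Asz1, Cftr, Lsm8, Ing3, Tspan12, Tfec, Mdfic, Fam3c, Ptprz1, Cadps2, Rnf133, Rnf148, Aass, Epha3, Areg, Tgfa, Ereg, Btc, Hbegf, Nrg1, Pdgfa, Fgf7, Fgf10, Spry4, Dusp6, Spry1, Prf1, Ncr1, Nkg7, Cd3e, Cd4, Cxcr6, C1qa, Csf1, H2-K1, Tap1, B2m, Cdh1, Krt8, Tagln, Hoxc5, Hoxc8, Hoxc9, Hoxa9, Hoxa10, Hoxc10, H19, Igf2 and Peg10 fall outside it and were chosen after their values were seen, as was Fam177a.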

Additional observations from a re-analysis of the deposited data

Results flagged for a closer look

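For 5 named genes, all 3 tumours of one line lay above those of the other when untreated and below them in 1 treatment arm; none of these changes of direction was tested. Fam177a2 had a mean of 31.8 CPM in p53RB-624 and 0 in p53RB-626 when untreated, and 0 against 23 in the antibody arm. Pnpla2, a lipase of fat cells, had 24.7 against 34.1 CPM when untreated and 37.4 against 28.7 in the antibody arm. Neb, a muscle gene, had 34 against 2.74 CPM when untreated and 0.882 against 2.49 in the antibody arm. Cxcr2, a chemokine receptor of neutrophils, had 0.58 against 2.75 CPM when untreated and 1.61 against 0.466 with trametinib. Cxcl2, a ligand of that receptor, had 1.16 against 5.13 CPM when untreated and 3.24 against 1.07 with trametinib. Groups of 3 tumours are too small for a test of outlying samples, so none was made.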

How the results depend on the processing

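The count of genes called between the untreated lines, 11089, was 3452 with the spread estimated over all untreated groups and 6100 without p53RB-624 tumours 1 and 2. Leaving out each tumour gave 9436 to 11184. The count with at least a 2-fold difference was 1943 with that spread and 1935 under the stricter filter, and 3104 to 3337 leaving out each tumour. Upper quartile scaling gave 11177 calls, 4794 of them higher in p53RB-624, against 5445 by TMM. Among list members 665 were called, and 216 with the spread over all groups. Windows of 100 genes gave 9 described windows of 169. Between the 2 sets of untreated p53RB-626 tumours, leaving out 1 tumour gave 3288 to 5590 calls, the lowest without tumour CP-4088 and 3357 without tumour CP-4549. Over 117 named genes and all alternatives, 2030 of 2102 values kept their direction and side of the threshold, 57 lost the call (34 of them with the spread over all groups) and 15 changed sign. With p53RB-626 tumours CP-4088 to CP-4090 in place, Rbl1 and Zeb1 were each at 0.03 and Krt14 at -4.61; with all 6 p53RB-626 tumours Krt14 was at -3.60. Egfr, not called in the main comparison, was at 0.41 (called) with those tumours in place, 0.20 with all 6, 0.05 with limma, 0.03 without a filter, 0.01 with the spread over all groups, 0.00 with DESeq2 and RLE scaling, and -0.07 to 0.04 leaving out 1 tumour (0.00 without p53RB-624 tumour 1). The cause of these shifts was not tested. Genes near 0 in one line rest on few counts there (1 for Alx1 and 3 for Myh7 over the group), so depth limits how exactly their ratios are known. No paired analysis was possible because the labels give no replicate numbers.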
